A study of Homo sapiens with 6 samples.

Results

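Keratin genes, 10 of the 60831 genes in the deposited table, are described here in PATU8988 cells, a human pancreatic cancer cell line. They are KRT8, KRT18, KRT19 and KRT7 of simple epithelia, KRT17, KRT15, KRT6A and KRT16 of stratified epithelia, and KRT23 and KRT80, which fall in neither class here. The rows were taken by gene name, and the 10 names were chosen by their values in the knockdown and control libraries, so those values describe the genes and support nothing further. Bulk RNA was sequenced from 3 libraries of cells with a hairpin against CLIC1, a chloride intracellular channel protein (shCLIC1), and 3 libraries of cells with a control hairpin (shNC). Both groups carried a lentiviral vector with a U6 promoter, EGFP and a puromycin resistance gene, and both had been selected in 5 µg/mL puromycin for 2 weeks, so stable infected populations and not an acute knockdown were compared. The sources used here do not say whether the 3 libraries of a group came from separate infections or how many hairpins were used, and the spread between libraries may be technical.

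Keratins are the intermediate filament proteins of epithelial cells. Each filament is built from equal numbers of type I (acidic) and type II (basic) chains, so a chain without a partner is degraded. KRT8 (type II) pairs with KRT18 (type I) in simple epithelia such as the pancreatic duct and acinus, and KRT7 (type II) and KRT19 (type I) mark duct-like cells. KRT6A (type II) pairs with KRT16 and KRT17 (type I) in stressed, wounded or hyperproliferative stratified epithelium, and KRT15 (type I) is a chain of the basal layer.

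The chains share a long central rod whose end is a conserved stretch of the protein and shows how alike the members' sequences are. The 45 coding bases at the end of the rod, read from GENCODE release 29 transcripts (GRCh38), are shown for 6 of the 9 members in which the stretch was found, with capitals at the 18 positions that were identical in all 9. The type II chains come first.
KRT7, chr12:52245586-52245630, plus strand: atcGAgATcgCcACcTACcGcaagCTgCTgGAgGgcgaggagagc
KRT6A, chr12:52488330-52488374, minus strand: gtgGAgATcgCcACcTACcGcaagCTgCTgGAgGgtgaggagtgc
KRT18, chr12:52952293-52952337, plus strand: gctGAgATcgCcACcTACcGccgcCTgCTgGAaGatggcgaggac
KRT19, chr17:41523779-41523823, minus strand: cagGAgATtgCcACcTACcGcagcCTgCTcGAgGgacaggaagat
KRT17, chr17:41620661-41620705, minus strand: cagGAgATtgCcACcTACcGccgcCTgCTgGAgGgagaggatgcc
KRT16, chr17:41610333-41610377, minus strand: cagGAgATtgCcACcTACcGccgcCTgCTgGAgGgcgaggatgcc
Between KRT16 and KRT17, 44 of the 45 bases were identical. Over the whole coding sequence KRT8 and KRT18 were 64.3% identical, KRT8 and KRT7 75.3%, and KRT16 and KRT17 79.9%. KRT6A was 97.5% identical to KRT6B and 97.9% to KRT6C, so reads of these 3 genes could be split between them. KRT6B was listed at 0 in all 6 libraries, and KRT6C reached 0.02 TPM in shCLIC1 replicate 3 and was at 0 elsewhere.

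Gene positions follow the chain types with 1 exception. On chromosome 12 of GRCh38 lie KRT80 (52168996 to 52192000, minus strand), KRT7 (52232520 to 52252186, plus), KRT6A (52487174 to 52493257, minus) and KRT8 (52897187 to 52949954, minus). KRT18, a type I gene, lies beside KRT8 on the same chromosome (52948871 to 52952901, plus). The other type I members lie on the minus strand of chromosome 17: KRT23 (40922696 to 40937634), KRT15 (41513743 to 41522529), KRT19 (41523617 to 41528308), KRT16 (41609778 to 41615899) and KRT17 (41619441 to 41624842). The annotated KRT8 and KRT18 genes overlap by 1084 bases on opposite strands, and 18.4% of the 100-base stretches of the KRT18 transcript also occur, on the opposite strand, in a KRT8 transcript. The sources used here do not say whether counting used strand, so reads from that overlap cannot be assigned to one gene of the pair.

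Values are TPM, a measure corrected for gene length and brought to a common total, so levels can be compared between genes. Each library summed to between 999987.88 and 999992.06 TPM and had between 13927 and 14257 genes at 1 TPM or more, and depth is unknown. CLIC1 was at 219, 210 and 204 TPM in shCLIC1, against 313, 311 and 297 TPM in shNC, so the targeted transcript was lower in every library labelled as knockdown and far from absent (log2 fold change −0.54, SE 0.0407, limma adjusted p = 0.00345). The cells had epithelial transcripts in both groups, with the 8 epithelial markers summing to 1091 to 1173 TPM in shCLIC1 and 1032 to 1042 TPM in shNC. Mesenchymal markers summed to 6.48 to 7.42 TPM in shCLIC1 and 5.32 to 7.64 TPM in shNC, with VIM, the intermediate filament of mesenchymal cells, averaging 0.217 TPM in shCLIC1 and 0.353 TPM in shNC. Of the leukocyte, endothelial and fibroblast markers, PTPRC, CD3E, CDH5, KDR, COL1A2, DCN, LUM and PDGFRA were listed at 0 in all 6 libraries. The 7 fibroblast markers summed to 1.58 to 3.37 TPM in shCLIC1 and 2.75 to 4.45 TPM in shNC, mostly from COL1A1 (means of 1.43 TPM in shCLIC1 and 1.80 TPM in shNC) and PDGFRB (1.05 TPM in shCLIC1 and 1.5 TPM in shNC), neither of which passed (limma adjusted p = 0.639 and 0.706). The 4 endothelial markers summed to at most 0.18 TPM in any library. In bulk RNA a change in the share of cells that express a gene and a change in RNA per cell cannot be told apart.

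The simple keratin pair dominated. KRT8 was at 5205, 4944 and 4971 TPM in shCLIC1, against 4316, 4239 and 4338 TPM in shNC. KRT18 was at 4990.1, 4728 and 4858 TPM in shCLIC1, against 4155, 4042 and 4229 TPM in shNC. Every knockdown library was above every control library for both genes. KRT8 ranked between 19th and 21st of all genes by TPM in shCLIC1 and 22nd in each shNC library, and KRT18 between 20th and 22nd in shCLIC1 and between 23rd and 26th in shNC.

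Both chains moved by nearly the same amount. The log2 fold change of TPM + 1 was 0.23 (SE 0.0256) for KRT8 and 0.23 (SE 0.0278) for KRT18, and the ratio of group means was 1.17 for each. The level of KRT8 over that of KRT18 was 1.04 ± 0.0122 in shCLIC1 and 1.04 ± 0.0116 in shNC (SD, n = 3 each), and lay between 1.02 and 1.05 in all 6 libraries.

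KRT19, the smallest keratin and a ductal marker, was next in level. It was at 928, 948.5 and 829 TPM in shCLIC1, against 709, 665 and 643 TPM in shNC, again without overlap. Its log2 fold change was 0.42 (SE 0.0592) and its ratio of means 1.34. KRT7, the type II chain that often accompanies KRT19 in ducts, was scarce here. It was at 2.92, 3.13 and 2.42 TPM in shCLIC1, against 1.31, 1.52 and 1.39 TPM in shNC. That is a ratio of means of 2.01 and a log2 fold change of 0.66 (SE 0.142), on a scale where the added 1 shrinks the change of low genes.

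**Figure D1:**
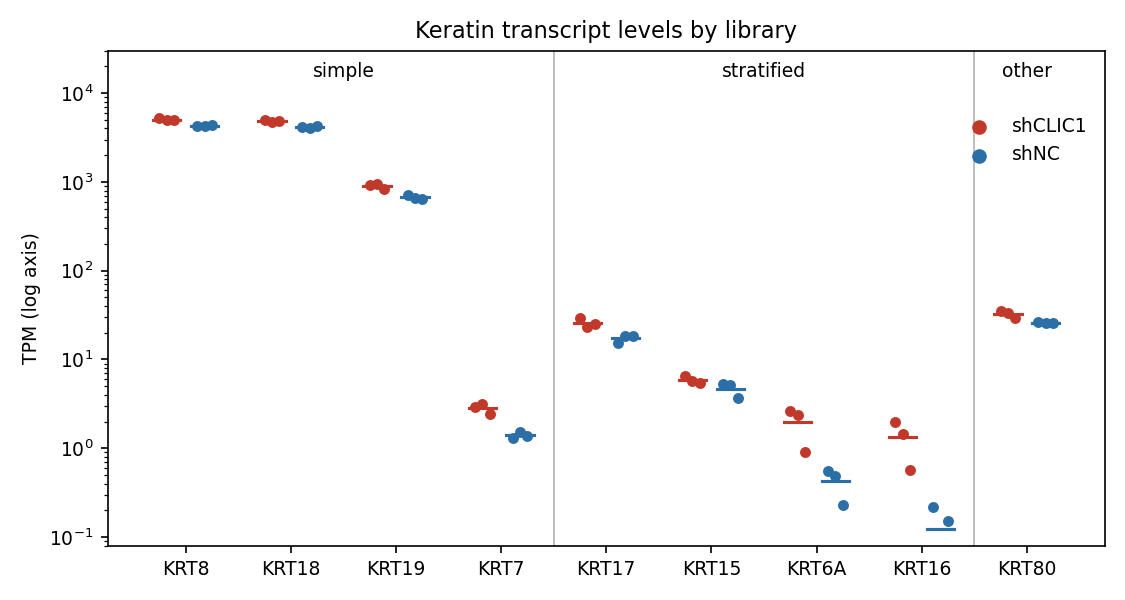
TPM of 9 keratin genes on a log axis, with shCLIC1 libraries (red) left of shNC libraries (blue) for each gene; points are libraries and short lines are group means of 3. KRT8 and KRT18 lie at 4042 TPM or more and the stratified keratins at 28.97 TPM or less, and the groups do not overlap in any of the 9 genes. KRT23 and the KRT16 value listed at 0 in shNC replicate 3 cannot be drawn on this axis.

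The stratified keratins were at low levels, and KRT17 was the highest of them. KRT17, a chain of basal and injured epithelium also seen in the basal-like class of pancreatic cancer, was at 28.97, 23.05 and 25.04 TPM in shCLIC1, against 15.41, 18.15 and 18.43 TPM in shNC. Its groups did not overlap, with a ratio of means of 1.48 and a log2 fold change of 0.54 (SE 0.105). KRT15 was at 6.45, 5.74 and 5.38 TPM in shCLIC1, against 5.31, 5.1 and 3.69 TPM in shNC. The lowest knockdown value of KRT15 and its highest control value lie close together, and the log2 fold change was 0.28 (SE 0.141), or 0.14 without shNC replicate 3.

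KRT6A and KRT16, partners in wound and stress epithelium, were close to the limit of the table in shNC. KRT6A was at 2.63, 2.34 and 0.91 TPM in shCLIC1, against 0.55, 0.49 and 0.23 TPM in shNC. KRT16 was at 1.97, 1.44 and 0.57 TPM in shCLIC1, against 0.22 and 0.15 TPM in 2 shNC libraries, and was listed at 0 in shNC replicate 3. Both genes had their lowest knockdown value in shCLIC1 replicate 3, which still exceeded every control value. The ratio of means was 4.63 for KRT6A, and the log2 fold change was 1.01 (SE 0.279) for KRT6A and 1.01 for KRT16. KRT6A reached the level filter, a mean of 1 TPM over the 6 libraries, only through the shCLIC1 libraries, and KRT16 stayed under it at a mean of 0.725 TPM. The size of these changes depends on the pseudocount: with 0.1 in place of 1 added to TPM, the log2 fold change of KRT6A was 1.91.

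KRT80, a type II chain found in many epithelia, was at 35.4, 33.63 and 29.62 TPM in shCLIC1, against 26.3, 25.94 and 25.73 TPM in shNC. The groups did not overlap, and the log2 fold change was 0.32 (SE 0.0747). KRT23, a type I chain, was listed at 0 in 5 libraries and at 0.05 TPM in shCLIC1 replicate 2, so no change can be given for it.

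By mean level the order was KRT8, KRT18, KRT19, KRT80, KRT17, KRT15, KRT7, KRT6A, KRT16 and KRT23, and it was the same in shCLIC1 and in shNC. Neighbours overlapped in shCLIC1 for KRT8 and KRT18, for KRT7 and KRT6A, and for KRT6A and KRT16. In shNC, KRT16 and KRT23 met at 0, and 2 pairs nearly touched: the lowest KRT8 value, 4239 TPM, was close to the highest KRT18 value, 4229 TPM, and the lowest KRT6A value, 0.23 TPM, to the highest KRT16 value, 0.22 TPM. Within shCLIC1, replicate 1 had the highest value in 7 of the 9 measured genes, and replicate 3 the lowest in 6 of 9. Those 6 were KRT19, KRT7, KRT15, KRT6A, KRT16 and KRT80. This order was not particular to the keratins. A trimmed mean of log ratios to the mean library, over tested genes above 0 in every library, gave factors in the same order. They were 1.03, 1.01 and 0.954 for shCLIC1 replicates 1, 2 and 3.

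In the fit across all 14135 tested genes (limma with a mean-variance trend, Benjamini-Hochberg adjusted p under 0.05), 3 of the 8 tested members passed as higher in shCLIC1, namely KRT8, KRT18 and KRT19, and 0 as lower. Of all tested genes 1.74% passed in either direction and 0.962% as higher, and nothing is read from the members' count because they were picked with this contrast known. All 3 calls were in the simple class, where 3 of 4 members passed, against 0 of 3 tested stratified members. The median log2 fold change had the other order, at 0.325 in the simple members and 0.540 in the tested stratified members. Among the latter is KRT6A, which reached the level filter only through the shCLIC1 libraries. Neither difference was tested, and both cover only the picked members. KRT20, a simple keratin outside them, was tested and did not pass (log2 fold change 0.12, limma adjusted p = 0.566). The 3 called genes were also the 3 most abundant members, and precision moved with level over the whole table. The median SE of a log2 fold change was 0.0297 among the 150 genes at 1000 TPM or more, of which 6.0% passed. It was 0.0469 among the 1052 genes between 100 and 1000 TPM, where KRT19 lies, and 7.7% of those passed. Between 10 and 100 TPM it was 0.0804 among 7049 genes, of which 1.74% passed. Between 1 and 10 TPM it was 0.157 among 5884 genes, of which 0.561% passed. Of the 10 members, 9 had every knockdown library above every control library, where 11.1% of all tested genes did.

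The calls were lost without any 1 control library, and this loss was not particular to the keratins. Without shNC replicate 1, 2 or 3 the number of members that passed in limma was 0 each time. Over all tested genes the number fell from 246 to 35, 34 and 36. In each fit 7 of the 8 tested members had an unadjusted p under 0.05. Of the 14148, 14135 and 14130 genes tested, 1700, 1748 and 1769 did. Nothing is read from the members' counts, because they were picked with this contrast known. KRT6A also reached the level filter only through the shCLIC1 libraries. The log2 fold changes ran from 0.220 to 0.236 for KRT8, 0.213 to 0.245 for KRT18 and 0.389 to 0.460 for KRT19. KRT8 and KRT18 stayed called without any single shCLIC1 library. KRT19 lost its call without shCLIC1 replicate 1 or 2, and without shCLIC1 replicate 3 the number of called members was 5, with KRT6A and KRT80 added. No member changed direction in any of these fits, which was fixed in advance because the groups did not overlap in any tested member.

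**Figure D2:**
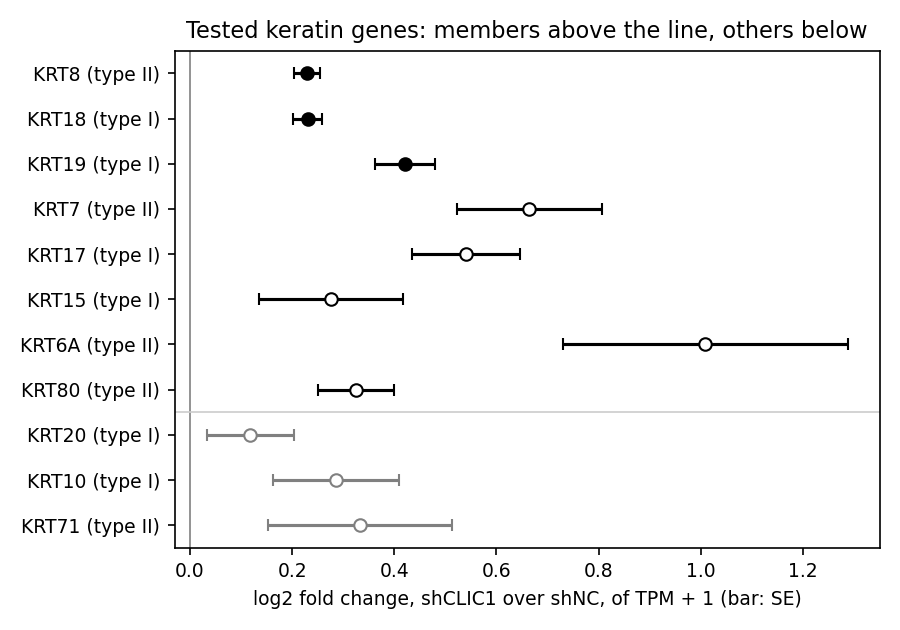
Log2 fold change of TPM + 1 with its SE for the 8 tested members (black) and the 3 other tested keratin genes (grey); filled points passed the threshold of the fit across all genes. All 11 values are positive, from 0.12 for KRT20 to 1.01 for KRT6A, and the filled points are KRT8, KRT18 and KRT19.

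**Figure D3:**
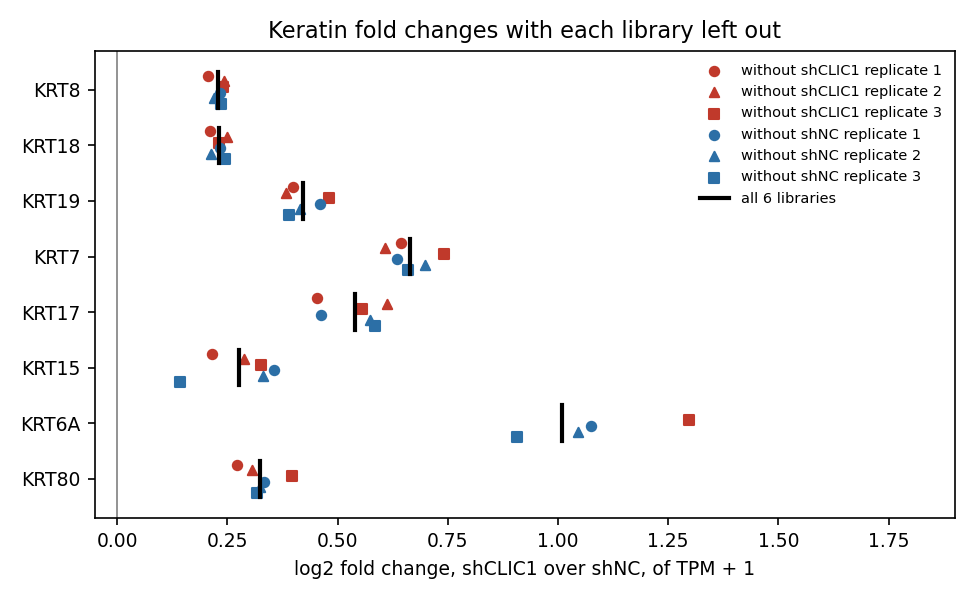
Log2 fold change of TPM + 1 for the 8 tested members with all libraries (black bar) and with each library left out (red symbols, a shCLIC1 library; blue symbols, a shNC library). KRT8 stays between 0.21 and 0.24, whereas KRT6A reaches 1.30 without shCLIC1 replicate 3; KRT6A falls under the level filter without shCLIC1 replicate 1 or 2 and has no symbol there.

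Keratin transcripts as a whole took a larger share of the RNA in the knockdown libraries. Over the 54 human keratin genes the sum was 1.13%, 1.07% and 1.08% of TPM in shCLIC1, against 0.927%, 0.904% and 0.930% in shNC. The means were 1.09% ± 0.0287 in shCLIC1 and 0.920% ± 0.0143 in shNC (SD, n = 3 each), a difference of 0.172 percentage points. Members picked with this contrast known make nearly all of the sum, so the difference describes them and was not tested. Summed over the 10 members the difference was 1709 TPM, of which KRT8 made 742 TPM, KRT18 717 TPM and KRT19 229 TPM. KRT8 and KRT18 together made 90.6% ± 0.612 of all keratin TPM in shCLIC1 and 91.7% ± 0.383 in shNC.

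The balance of chain types shifted slightly. Type II keratins summed to 5081 ± 146 TPM in shCLIC1 and 4327 ± 52.0 TPM in shNC, and type I keratins to 5839 ± 141 TPM in shCLIC1 and 4876 ± 91.8 TPM in shNC. Type II over type I was 0.875, 0.866 and 0.869 in shCLIC1, against 0.882, 0.895 and 0.885 in shNC, so type I transcripts were in excess in every library and more so in every knockdown library. KRT19 made 15.4% ± 1.05 of type I TPM in shCLIC1 and 13.8% ± 0.695 in shNC. The stratified members made 0.357%, 0.305% and 0.298% of member TPM in shCLIC1, against 0.233%, 0.266% and 0.241% in shNC. They stayed below 1% of keratin transcripts in all 6 libraries. These sums are dominated by genes picked for their values and carry no test.

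**Figure D4:**
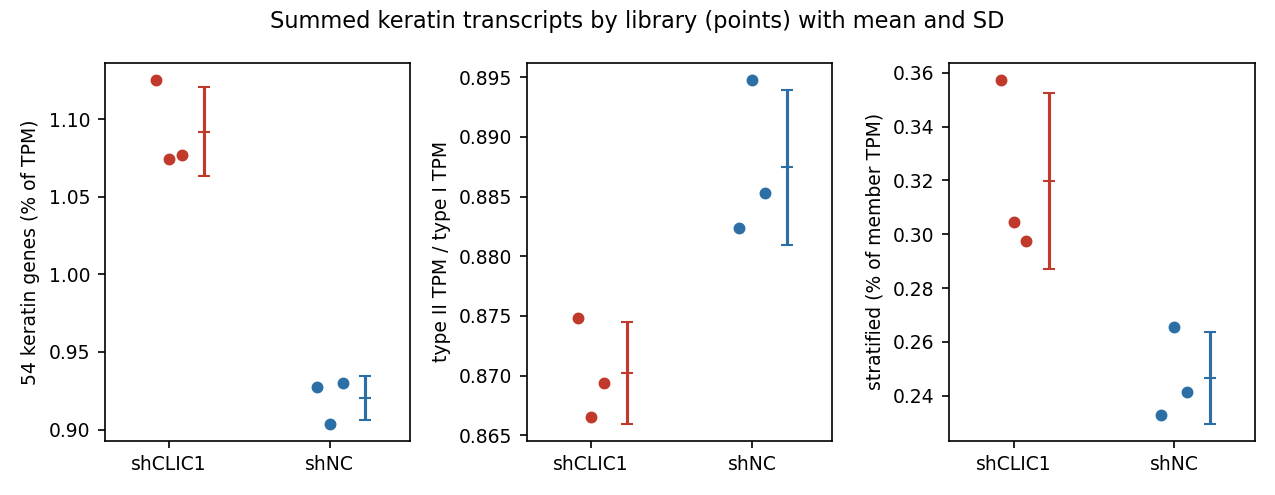
For each library, the share of TPM taken by the 54 keratin genes (left), the summed TPM of type II over type I keratin genes (middle) and the stratified members as a share of member TPM (right); points are libraries, bars are mean and SD of 3, and the axes do not start at 0. The shCLIC1 points lie above the shNC points at left and right and below them in the middle.

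The remaining 44 keratin genes gave few measurable transcripts. A mean of 1 TPM was reached by 3 of them, 24 lay below it and 17 were listed at 0 in every library. KRT20, a simple keratin of the gut lining, was at 32.17, 29.77 and 27.19 TPM in shCLIC1, against 29.72, 26.66 and 25.51 TPM in shNC, so its groups overlapped (log2 fold change 0.12, SE 0.0853, limma adjusted p = 0.566). With 1 library left out its log2 fold change ran from 0.0605 (without shCLIC1 replicate 1) to 0.178 (without shNC replicate 1). KRT10, a chain of differentiated epidermis, was at 12.4, 15.78 and 14.4 TPM in shCLIC1, against 9.72, 12.58 and 12.15 TPM in shNC (0.29, SE 0.123, limma adjusted p = 0.327), with a log2 fold change of 0.179 without shNC replicate 1. KRT71, known as an inner root sheath keratin, was at 1.83, 1.35 and 1.85 TPM in shCLIC1, against 1.11, 0.85 and 1.43 TPM in shNC (0.33, SE 0.180, limma adjusted p = 0.431). None of these 3 passed in limma, 0 had an unadjusted p under 0.05, and the groups overlapped in each.

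Markers of basal squamous cells were mostly near 0. TP63, the master regulator of that lineage, was listed at 0 in every shCLIC1 library and averaged 0.0333 TPM in shNC. The basal chains KRT5 and KRT14 averaged 0.92 and 0.227 TPM in shCLIC1, against 0.403 and 0.103 TPM in shNC. KRT5 did not overlap between groups, and both genes were under the level filter and untested. The 6 markers summed to 70.97 to 90.35 TPM in shCLIC1 and 53.02 to 58.34 TPM in shNC, nearly all from TRIM29 (75.5 ± 11.1 TPM in shCLIC1 and 55.0 ± 2.42 TPM in shNC, limma adjusted p = 0.0843). That sum moved in the same direction as the stratified keratins, and its part in their values was not tested. Acinar and leukocyte marker sums were also higher in every shCLIC1 library, at 4.04 to 4.99 TPM against 2.84 to 3.57 TPM in shNC for 5 acinar markers, and at 5.84 to 6.91 TPM against 3.95 to 5.62 TPM in shNC for 6 leukocyte markers. Nearly all of these came from PRSS1 and CD14, neither of which passed (limma adjusted p = 0.165 and 0.368), 3 of the acinar markers were at 0 throughout, and their part in the keratin values was not tested. Of the 8 epithelial markers, EPCAM alone passed, at 446 ± 26.5 TPM in shCLIC1 and 354 ± 2.73 TPM in shNC (log2 fold change 0.33, limma adjusted p = 0.0210), while the adherens junction protein CDH1 was at 123 ± 10.9 TPM in shCLIC1 and 136 ± 6.83 TPM in shNC (limma adjusted p = 0.354).

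Pseudogenes are a second source of similar sequence. The table lists 147 keratin pseudogenes, taken by name, of which 2 reached a mean of 1 TPM, both copies of KRT8. KRT8P12 was at 2.47, 3.17 and 2.63 TPM in shCLIC1, against 2.81, 2.88 and 2.76 TPM in shNC (log2 fold change −0.03, limma adjusted p = 0.948). KRT8P46 was at 1.18, 1.42 and 0.87 TPM in shCLIC1, against 1, 0.77 and 0.9 TPM in shNC (0.18, limma adjusted p = 0.680). All KRT8 pseudogenes together amounted to 0.135% ± 0.0122 of KRT8 TPM in shCLIC1 and 0.137% ± 0.0104 in shNC, which is far less than the spread of KRT8 between libraries. Against the KRT8 coding sequence, KRT8P12 was 90.6% and KRT8P46 91.7% identical over the aligned bases. Of the 100-base stretches of KRT8, 7.56% occur in 4 other genes, most often in the pseudogene KRT8P3. Those of KRT18 were found in no other gene than KRT8. Of the 100-base stretches of KRT16, 7.18% occur in other genes, most often in the keratin gene KRT14. For KRT7, 7.67% of stretches occur in the antisense gene KRT7-AS, which was at 0.14 TPM or less in every library. KRT19, KRT15 and KRT80 shared no such stretch with another gene.

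The profile of KRT8 over the 6 libraries lay closest to that of KRT18. Likeness was measured as the root mean square distance between log2(TPM + 1) values, each gene centred on its own mean, among the 1201 other tested genes at 100 TPM or more. KRT18 was the nearest gene to KRT8, at a distance of 0.0135, and KRT8 the nearest to KRT18, with the overlap on opposite strands described above as something the 2 genes share. Next to KRT8 came OSTC (0.0216) and PRKCSH (0.0223), which act in glycosylation in the endoplasmic reticulum, then the disulfide isomerase PDIA3 (0.0230) and the metalloproteinase inhibitor TIMP1 (0.0232). The same 4 genes followed KRT8 in the list for KRT18, with PRKCSH first (0.0186). KRT19 was 495th by distance from KRT8 (0.120) and 565th from KRT18 (0.127). The profiles were centred but not scaled, so the distance grows with a difference in the size of a change as well as in its direction. KRT19 was also higher in every shCLIC1 library than in any shNC library. Its log2 fold change was 0.42, against 0.23 for KRT8 and for KRT18.

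**Figure D5:**
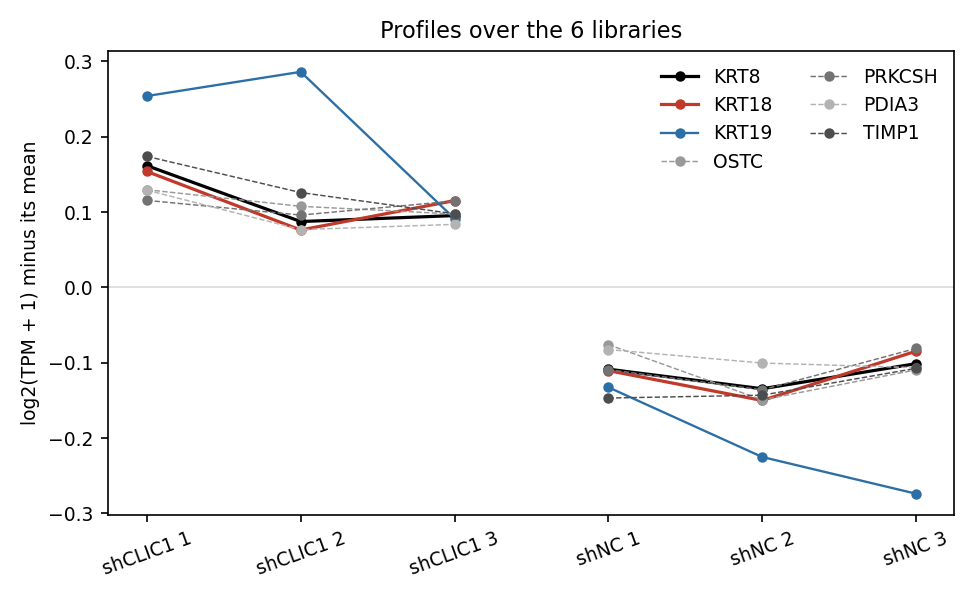
Log2(TPM + 1) minus each gene's mean, by library, for KRT8, KRT18, KRT19 and the 4 next nearest genes to KRT8; lines only join points of 1 gene within a group. KRT8 and KRT18 lie within the same narrow range in each library, while KRT19 lies further from 0 in 5 of the 6 libraries.

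Other intermediate filament genes did not share a direction. Of 17 genes outside the keratins, 6 were tested, 1 rose and 1 fell, and the median log2 fold change was 0.01, against −0.00473 over all tested genes. An unadjusted limma p under 0.05 was found for 3 of the 6. Of all 14135 tested genes 246 passed and 2207 had an unadjusted p under 0.05. LMNA, which encodes the A-type nuclear lamins, rose to 270, 248 and 257 TPM in shCLIC1, against 215, 206 and 215 TPM in shNC (0.28, SE 0.0429, limma adjusted p = 0.0287). LMNB1, a B-type lamin, fell to 100.3, 94.7 and 95.8 TPM in shCLIC1, against 123, 116 and 122 TPM in shNC (−0.31, SE 0.0446, limma adjusted p = 0.0228). Both calls were lost in fits with 1 library left out, while the log2 fold changes kept their direction and moved little. They ran from 0.249 to 0.310 for LMNA and from −0.338 to −0.296 for LMNB1 in those fits. LMNA did not pass without any 1 of the 6 libraries (adjusted p from 0.0535 to 0.121), and LMNB1 did not pass without shCLIC1 replicate 2 or any shNC replicate (adjusted p from 0.0855 to 0.115).

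Proteins that anchor keratin filaments gave no call. Of 19 desmosomal and plakin genes, 13 were tested, 0 passed in limma and 7 had an unadjusted p under 0.05, where 2207 of all 14135 tested genes did, with a median log2 fold change of 0.14, against −0.00473 over all tested genes. PKP3, a desmosomal plakophilin, had the smallest p, at 83.9, 76.8 and 84.7 TPM in shCLIC1, against 63.6, 67.8 and 72.7 TPM in shNC (0.26, SE 0.0655, limma adjusted p = 0.111). Of 18 genes for keratin-binding or keratin-modifying proteins, 16 were tested, 1 rose and 15 did not pass, with a median log2 fold change of 0.02, against −0.00473 over all tested genes. An unadjusted limma p under 0.05 was found for 5 of the 16, and 1.74% of all tested genes passed. The riser was SFN, the epithelial 14-3-3 protein that binds phosphorylated keratins, at 385, 354 and 358 TPM in shCLIC1, against 291, 291 and 307 TPM in shNC (0.30, SE 0.0444, limma adjusted p = 0.0249). SFN did not pass without shCLIC1 replicate 2 or any shNC replicate (adjusted p from 0.0654 to 0.117).

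Transcription factors of epithelial differentiation gave no call either. Of 19 genes, 17 were tested, 0 passed in limma and 5 had an unadjusted p under 0.05, where 2207 of all 14135 tested genes did, with a median log2 fold change of 0.07, against −0.00473 over all tested genes. CEBPB, a leucine zipper factor active in differentiating epithelium, had the smallest p, at 9.1, 11.87 and 9.32 TPM in shCLIC1, against 6.51, 6.38 and 6.45 TPM in shNC (0.57, SE 0.111, limma adjusted p = 0.0604). It passed with a level filter of 5 TPM (limma adjusted p = 0.0491) and in limma with robust variance (adjusted p = 0.0497), and over all its alternatives the adjusted p ran from 0.0491 to 0.191.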

How the data were processed

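RNA was measured in 6 libraries of PATU8988 cells, 3 with a hairpin against CLIC1 and 3 with a control hairpin. The authors deposited 1 table of TPM per gene and library. The tools named are HISAT, RSEM, fastp and edgeR, and the build is GRCh38, per the submitters' processing notes. Tool versions, annotation release and filters, not given in the sources used here, could change the values. TPM keeps no depth, so counting error is unknown and no count model was fitted. A pair of columns with the authors' group means was not used.

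Values were transformed to log2(TPM + 1). Genes with a mean of at least 1 TPM were compared between groups with limma 3.58.1 (R 4.3.3), mean-variance trend, two-sided, Benjamini-Hochberg threshold 0.05 over 14135 genes. SE belongs to the log2 fold change, and SD is over n = 3. On simulated data of the shCLIC1 against shNC layout over 14135 genes, 24%, 50%, 92% and 96% of 50 genes changed by 0.3, 0.5, 1 and 2 on the log2 scale were recovered. Of the unchanged genes 5 were called. The changed genes were drawn only from those with a mean log2(TPM + 1) above 2. KRT7 and KRT6A lie below that level, so these shares do not cover them. Named genes were the 10 members, CLIC1, other keratin genes and pseudogenes with a mean of at least 1 TPM, the called genes of 4 related lists (or the smallest p), 5 nearest profiles for KRT8 and KRT18, and summed cell type markers. Single markers of other cell types were named after their values were seen. Members and lists were chosen with earlier results of these data known. Sequences and positions came from GENCODE release 29, and some sequences are not reported here. Same-numbered libraries of the 2 groups did not deviate together (r = 0.04, −0.05 and −0.01 across genes), so the fit has no replicate term. Alternatives varied the pseudocount, filter, trend, scaling, replicate term, copies and libraries.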

Additional observations from a re-analysis of the deposited data

How the results depend on the processing

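The members kept a positive log2 fold change in all 118 alternative values computed for them, but many of these could not change sign. Changing the filter, trend, variance method or replicate term leaves the log2 fold change as it was. In 9 of the 10 members the groups did not overlap, so leaving out a library or changing the pseudocount cannot reverse it. The values also include KRT23, for which no change can be given. Of all tested genes 246 passed, against 61 without a level filter, 0 in limma without the trend (2040 at an unadjusted p under 0.05) and between 34 and 242 with 1 library left out. Of the 10 members 3 passed, against 0 without a filter (8 at an unadjusted p under 0.05), 0 without the trend (7 at an unadjusted p under 0.05) and between 0 and 5 with 1 library left out. The members were picked with this contrast known, so nothing is read from their counts. Without a filter more genes were tested (29306), and the SE of the 3 called members was also larger. It was 0.0380 for KRT8, 0.0395 for KRT18 and 0.0640 for KRT19, against 0.0256, 0.0278 and 0.0592 in the main fit. The cause of the lost calls was not tested for the filter or for the trend. KRT17 passed under a filter of 5 TPM and in limma with robust variance, and KRT80 after trimmed-mean rescaling. With a pseudocount of 0.1 the uncalled KRT71 was at 0.54 and KRT8P46 at 0.33. KRT8P12, which was not called, ran from −0.105 to 0.0278 on the log2 scale with 1 library left out and changed sign without shCLIC1 replicate 1. With replicate number as a block, 41 genes and 2 members passed (KRT8 did not), but the numbers do not pair the libraries. The difference in keratin share was 0.211 percentage points with mitochondrially encoded genes left out, a rescaling that raises all other shares by construction. With 1 library left out it ran from 0.155 to 0.181, the difference in type II over type I from −0.0198 to −0.0136 and that in stratified share from 0.0545 to 0.0844 percentage points. Levels near 0 in KRT6A and KRT16 have unknown counting error.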
